A study of Homo sapiens with 14 samples.

Results

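ISL1, CHRDL1, SLITRK5 and PTCHD1 are 4 developmental and neuronal genes whose transcripts were lower in every library of a SNAP-ADAR line than in either library of the empty-vector line. They were selected on their levels against the empty-vector line, from 22410 genes analysed. In the fit over all 14 libraries, which holds the empty-vector libraries, all 4 had enough fragments to be among the 16418 genes tested. Each gene was read from its RefSeq transcript with the highest mean depth-scaled level over the 14 libraries. Because the empty-vector libraries and the libraries of the SA1Q and SA2Q lines took part in naming the genes, every value set against the empty vector is a description and carries no test.

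The libraries came from 293 Flip-In T-REx cells, which derive from human embryonic kidney and take up a transgene at a prepared genomic site. Polyadenylated RNA was sequenced in 2 libraries for each of 7 groups. The SA1Q and SA2Q groups held the SNAP-ADAR1Q and the SNAP-ADAR2Q gene and received no guide, and the SA1Q+gRNA and SA2Q+gRNA groups held the same genes and a guide RNA. The SA1+gRNA and SA2+gRNA groups held the SNAP-ADAR1 and the SNAP-ADAR2 gene with a guide, and the ctrl group held an empty vector and no guide. A SNAP-ADAR joins a SNAP tag, which bonds to a modified guide RNA, to a deaminase domain, that of ADAR in SA1 and that of ADARB1 in SA2, and the Q forms carry a more active deaminase. All groups share the parental line. The sources used here do not say whether each line is 1 clone, how the transgene was induced or what the guide targets. Ctrl was the only line without a SNAP-ADAR, so a property of that line and the absence of the transgene cannot be told apart.

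The genes belong to pathways with well-known roles. ISL1 encodes a LIM-homeodomain transcription factor that works with the adaptor LDB1 and is known from motor neurons, heart progenitors and pancreatic islet cells. CHRDL1 encodes a secreted, chordin-like protein that binds bone morphogenetic proteins (BMPs) and keeps them from their receptors, and SLITRK5 encodes a leucine-rich-repeat membrane protein of synapses that binds receptor phosphatases on the facing cell. PTCHD1 encodes a membrane protein related to the hedgehog receptor PTCH1, and variants of this X-linked gene are known from intellectual disability and autism.

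On hg19, the build of the files, ISL1 lies at chr5:50678958-50690563 on the plus strand and CHRDL1 at chrX:109917084-110039286 on the minus strand. SLITRK5 lies at chr13:88324870-88331870 and PTCHD1 at chrX:23352985-23414918, both on the plus strand. The transcripts used measured 2717, 4101, 4446 and 5291 nucleotides for ISL1, CHRDL1, SLITRK5 and PTCHD1. CHRDL1 was listed with 4 transcripts that share nearly all fragments, with totals of 226 to 235 over the 14 libraries, and the other genes with 1 each. ISL1 overlaps its divergent transcript ISL1-DT by 209 nucleotides on the opposite strand, and since no source used here says whether counting used strand, its counts are uncertain there. ISL1-DT itself held 14 of its 55 fragments in the ctrl libraries, too few to pass the filter on low counts.

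The 250 bases before the annotated start are shown for the genes that RefSeq's promoter table holds (build GRCh38.p14). Whether these stretches bear on the levels was not tested. The table matched 3 of the 4 genes; PTCHD1 is named only. Capitals mark the letters of 6 motifs searched on either strand: the TATA box TATAAA, the CCAAT box (its own letters), the GC box GGGCGG, the cyclic AMP response half-site TGACG, the homeodomain core TAATTA and the E-box CACGTG. Each line runs 5′ to 3′ on the gene's own strand.
ISL1: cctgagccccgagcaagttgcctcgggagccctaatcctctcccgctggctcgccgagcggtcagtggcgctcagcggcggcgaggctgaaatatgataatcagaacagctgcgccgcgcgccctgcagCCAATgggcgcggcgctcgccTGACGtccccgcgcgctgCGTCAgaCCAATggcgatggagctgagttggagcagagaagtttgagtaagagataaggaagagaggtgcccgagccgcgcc
CHRDL1: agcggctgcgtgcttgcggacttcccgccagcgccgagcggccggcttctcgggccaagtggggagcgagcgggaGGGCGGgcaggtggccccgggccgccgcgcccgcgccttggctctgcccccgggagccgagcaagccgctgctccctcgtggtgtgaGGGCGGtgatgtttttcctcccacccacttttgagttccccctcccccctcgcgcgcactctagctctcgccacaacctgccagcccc
SLITRK5: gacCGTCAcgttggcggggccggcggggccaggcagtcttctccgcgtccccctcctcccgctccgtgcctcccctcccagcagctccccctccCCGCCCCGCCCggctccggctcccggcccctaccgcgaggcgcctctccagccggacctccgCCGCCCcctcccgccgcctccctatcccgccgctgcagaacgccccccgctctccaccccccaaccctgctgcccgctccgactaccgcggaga
They lie at chr5:51383198-51383447 (plus strand), chrX:110795818-110796067 (minus strand) and chr13:87672339-87672588 (plus strand). For SLITRK5 the table holds 3 starts, and the start whose gene span came closest to that of the files was taken, with a difference of 27 bases.

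All 3 upstream stretches were rich in G and C. ISL1 had a GC content of 65.2% and 27 CpG dinucleotides, CHRDL1 73.2% and 27, and SLITRK5 78.4% and 30, beside medians of 58% and 11 over the 35116 promoters of the table. Of those promoters 82.3% held fewer CpG dinucleotides than ISL1 or CHRDL1, and 87.6% fewer than SLITRK5. ISL1 had 2 CCAAT boxes and 2 half-sites of the cyclic AMP response element (TGACG), motifs found in 32.0% and 21.2% of all promoters. CHRDL1 had 2 GC boxes (GGGCGG), and SLITRK5 had 3, of which 2 overlap, with 1 TGACG; 42.6% of all promoters held a GC box. The TATA box TATAAA (10.7% of promoters), the homeodomain core TAATTA (4.35%) and the E-box CACGTG (6.34%) were not in these windows. No motif was common to all 3, and a match is only a run of letters.

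Fragment totals were 43.0 to 130.1 M per library, and the highest total, that of SA1+gRNA replicate 2, consists of even counts only, which makes 65.1 M as pairs. ADAR and ADARB1 transcripts followed the labels. ADAR averaged 1092 to 1514 CPM (counts scaled to library size) in the 3 groups of SA1 lines, 303 to 322 CPM in the 3 groups of SA2 lines and 324 CPM in ctrl, and ADARB1 974 to 1162 CPM in the SA2 lines, 27.8 to 31.8 CPM in the SA1 lines and 33.3 CPM in ctrl. SA1Q+gRNA replicate 1 and ctrl replicate 1 stood apart from the other 12 libraries on the first principal component, at -43.9 and -39.7 against 0.3 to 13.7. The 10 epithelial and neural markers of 293 cells were all tested and summed to 1813 to 2148 CPM in the transgenic libraries and 1883 to 1913 CPM in ctrl. Between transgenic lines and ctrl edgeR called 0 of these markers, and 0.633% of all genes. Of the markers 5 had an unadjusted p under 0.05, beside 14.5% of all genes. The markers ran from VIM at the top to PAX2 (3.17 CPM in the transgenic lines and 2.66 CPM in ctrl) and NEFM (1.22 CPM in the transgenic lines and 1.13 CPM in ctrl). VIM averaged 1044 CPM in the transgenic lines and 1002 CPM in ctrl, KRT8 292 CPM in the transgenic lines and 335 CPM in ctrl, and EPCAM 91.1 CPM in the transgenic lines and 81.9 CPM in ctrl. VIM and KRT8, and among the genes below EPHA5, HHIP, GLI1, PTCH1 and PHEX, overlap another listed gene on the opposite strand (VIM-AS1, KRT18, EPHA5-AS1, HHIP-AS1, ARHGAP9, LOC100507346 and PHEX-AS1), and INS and PELO overlap INS-IGF2 and ITGA1 on the same strand, so their counts are uncertain.

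ISL1 showed the widest gap. Its level, in CPM scaled by edgeR's TMM factors, was 0.0913 and 0.0215 in SA1Q, 0.125 and 0.255 in SA2Q, 0.154 and 0.0657 in SA1Q+gRNA and 0.112 and 0.109 in SA2Q+gRNA. It was 0.164 and 0.231 CPM in SA1+gRNA and 0.293 and 0.0974 CPM in SA2+gRNA, against 2.03 and 2.10 CPM in ctrl. The lowest ctrl library was 6.92 times as high as the highest transgenic library. These levels rest on 1 to 28 fragments in a transgenic library, against 85 and 111 in the ctrl libraries. The 28 were in the even-count library SA1+gRNA replicate 2. The gene was thus close to the limit of what this depth can count in every transgenic line. The mean was 0.143 ± 0.080 CPM in the transgenic libraries (SD, n = 12) and 2.07 ± 0.05 CPM in ctrl (SD, n = 2). The log2 change, transgenic minus ctrl, was -3.96 (standard error, SE, 0.30), the fourth lowest of all genes tested (rank 4).

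CHRDL1 came next. It had 0.146 and 0.172 CPM in SA1Q, 0.146 and 0.102 CPM in SA2Q, 0.129 and 0.0821 CPM in SA1Q+gRNA and 0.112 and 0.172 CPM in SA2Q+gRNA. It had 0.146 and 0.314 CPM in SA1+gRNA and 0.293 and 0.211 CPM in SA2+gRNA, against 1.34 and 0.947 CPM in ctrl. It varied least over the 12 transgenic libraries, with a standard deviation of log2 CPM of 0.47, against 0.71 for ISL1, 0.97 for SLITRK5 and 0.56 for PTCHD1. The lower ctrl library was 3.02 times as high as the highest transgenic library. Fragments numbered 5 to 38 in a transgenic library, against 56 and 50 in ctrl, the highest being the even-count library SA1+gRNA replicate 2. The log2 change was -2.81 (SE 0.30), rank 25 among falls.

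SLITRK5 held 1 fragment in 1 transgenic library and more in the others. It had 0.219 and 0.236 CPM in SA1Q, 0.251 and 0.526 CPM in SA2Q, 0.0257 and 0.246 CPM in SA1Q+gRNA and 0.431 and 0.50 CPM in SA2Q+gRNA. It had 0.310 and 0.495 CPM in SA1+gRNA and 0.677 and 0.633 CPM in SA2+gRNA, against 1.65 and 1.31 CPM in ctrl. The lowest value is that 1 fragment, in SA1Q+gRNA replicate 1, a library that stood apart. Without it the standard deviation of log2 CPM was 0.56 for SLITRK5 and 0.74 for ISL1. The other transgenic libraries held 11 to 60 fragments and each ctrl library 69. The 60 were in the even-count library SA1+gRNA replicate 2. The lower ctrl library was 1.93 times as high as the highest transgenic one, which belonged to SA2+gRNA. The log2 change was -2.07 (SE 0.31), rank 69.

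PTCHD1 kept the most of its ctrl level over the transgenic libraries together, though not in SA2+gRNA. It had 0.402 and 0.837 CPM in SA1Q, 0.941 and 0.645 CPM in SA2Q, 0.283 and 0.542 CPM in SA1Q+gRNA and 0.638 and 0.765 CPM in SA2Q+gRNA. It had 0.583 and 0.743 CPM in SA1+gRNA and 0.338 and 0.292 CPM in SA2+gRNA, against 1.62 and 1.72 CPM in ctrl. SA2+gRNA and SA1Q+gRNA replicate 1 were lowest, and the higher SA2Q library came within 1.73 times of the lower ctrl library. Fragments numbered 11 to 90 in a transgenic library, against 68 and 91 in ctrl. The 90 were in the even-count library SA1+gRNA replicate 2, and the next highest transgenic library held 49. The log2 change was -1.58 (SE 0.25), rank 112.

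**Figure D1:**
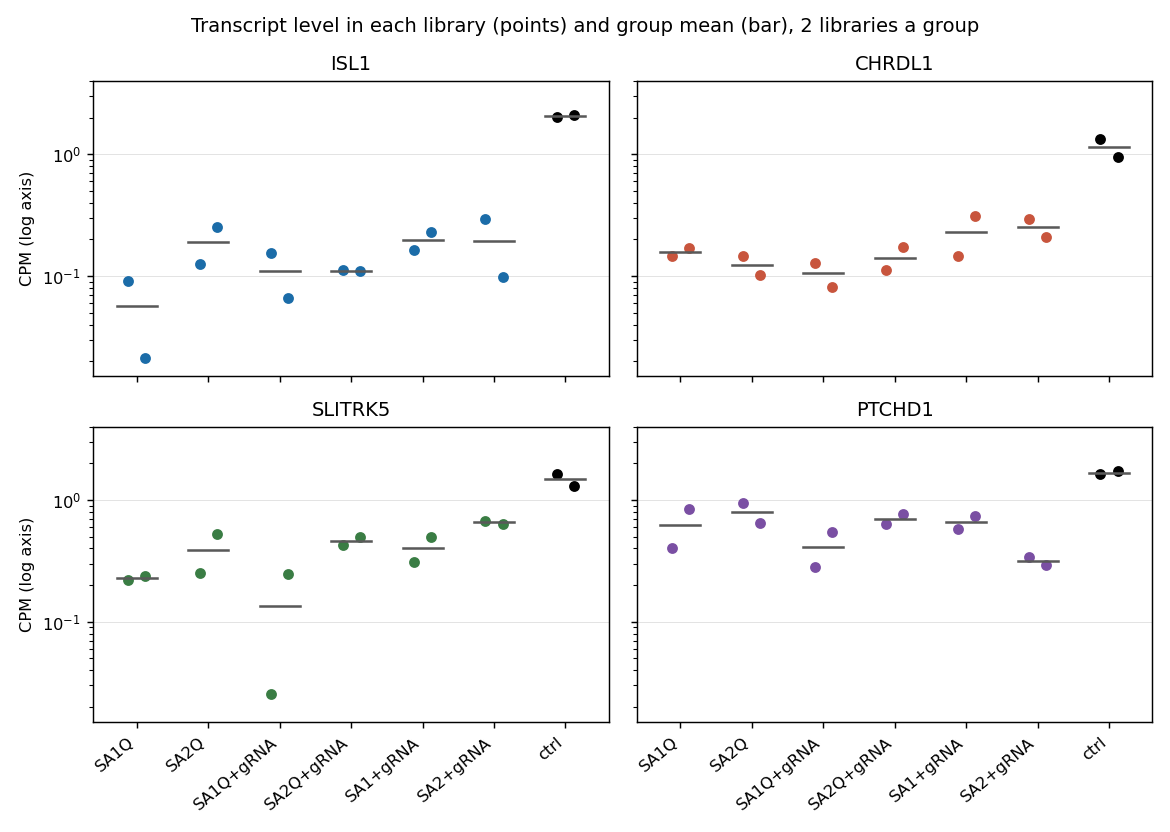
Level of each gene in CPM (log axis) in the 14 libraries, with points for libraries and bars for the mean of a group of 2. The ctrl points lie above all 12 transgenic points in each panel, by 6.92 times at the narrowest for ISL1 and 1.73 times for PTCHD1.

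For all 4 genes both ctrl libraries lay above all 12 transgenic libraries, a separation close to what they were chosen for. Among all genes tested 336 showed that separation (2.05%). Over all transgenic libraries together, ISL1 stood at 6.85% of its ctrl level (95% counting interval 5.29% to 8.81%), CHRDL1 at 14.98% (11.4% to 19.7%), SLITRK5 at 26.9% (21.8% to 33.3%) and PTCHD1 at 35.1% (29.1% to 42.5%). The intervals are exact binomial (Clopper-Pearson), cover counting error only and take the even-count library at its pairs. Why its counts are even is not known, and the tests below took them as deposited. In bulk RNA, fewer cells with a transcript and less of it per cell cannot be told apart.

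Within single groups the order of the genes changed. ISL1 was the lowest relative to ctrl in each of the 6 groups, from 2.86% (1.04% to 6.34%) in SA1Q to 9.62% (5.96% to 14.9%) in SA1+gRNA. CHRDL1 ran from 8.95% (4.17% to 17.1%) in SA1Q+gRNA to 21.9% (13.7% to 33.9%) in SA2+gRNA. SLITRK5 ran from 11.0% (6.12% to 18.5%) in SA1Q+gRNA to 44.7% (33.0% to 60.1%) in SA2+gRNA. PTCHD1 ran the other way in that group, with its minimum of 18.6% (12.3% to 27.1%) in SA2+gRNA and its maximum of 46.3% (35.1% to 60.7%) in SA2Q. In SA2+gRNA the SLITRK5 share thus lay above that of PTCHD1; that difference was not tested.

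**Figure D2:**
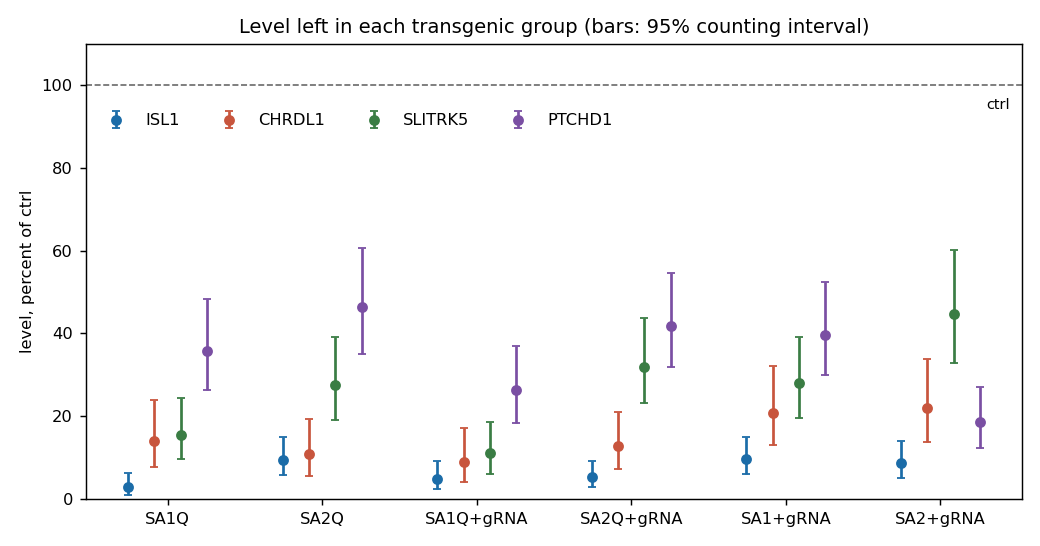
Level left in each of the 6 transgenic groups, as percent of ctrl, with a point per gene and a bar for the 95% counting interval. ISL1 lies lowest in every group, between 2.86% and 9.62%, and in SA2+gRNA SLITRK5 (44.7%) lies above PTCHD1 (18.6%).

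Per transcript length, the order of the genes differed between the lines. In FPKM, which divides by transcript length and library size, ISL1 averaged 0.0496 in the transgenic libraries and 0.717 in ctrl, and CHRDL1 0.0387 in the transgenic libraries and 0.262 in ctrl. SLITRK5 averaged 0.0804 FPKM in the transgenic libraries and 0.313 FPKM in ctrl, and PTCHD1 0.104 FPKM in the transgenic libraries and 0.298 FPKM in ctrl. By these means PTCHD1 was the most abundant of the 4 over the transgenic libraries together and ISL1 in ctrl. In SA2+gRNA alone PTCHD1 had the lowest mean, 0.0560 FPKM, against 0.0578 for CHRDL1, 0.0676 for ISL1 and 0.138 for SLITRK5. All were scarce transcripts even in ctrl, where 16.9% (CHRDL1) to 21.4% (ISL1) of the tested genes had a lower mean CPM.

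The order of the groups was loosely set. For ISL1, after ctrl came SA1+gRNA (mean 0.198 CPM), SA2+gRNA (0.195), SA2Q (0.190), SA2Q+gRNA (0.110), SA1Q+gRNA (0.110) and SA1Q (0.0564); among the transgenic neighbours in this order, SA2Q and SA2Q+gRNA alone had libraries that did not overlap. For CHRDL1 the order was SA2+gRNA (0.252 CPM), SA1+gRNA (0.230), SA1Q (0.159), SA2Q+gRNA (0.142), SA2Q (0.124) and SA1Q+gRNA (0.105), with overlap between all transgenic neighbours. For SLITRK5 it was SA2+gRNA (0.655 CPM), SA2Q+gRNA (0.465), SA1+gRNA (0.402), SA2Q (0.388), SA1Q (0.228) and SA1Q+gRNA (0.136). Here SA2+gRNA lay above SA2Q+gRNA, and SA2Q above SA1Q, without overlap. For PTCHD1 it was SA2Q (0.793 CPM), SA2Q+gRNA (0.702), SA1+gRNA (0.663), SA1Q (0.619), SA1Q+gRNA (0.413) and SA2+gRNA (0.315), again with overlap between all transgenic neighbours.

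Across the 12 transgenic libraries the genes did not move closely together. Pearson's r of log2 CPM ran from -0.22 (ISL1 with PTCHD1) to 0.41 (CHRDL1 with SLITRK5), and in counts this sparse such values are no finding. With the ctrl libraries included r ran from 0.59 to 0.87, which the choice of the genes fixes.

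Setting the transgenic lines against each other leaves ctrl out and was tested with edgeR's quasi-likelihood test, fitted over all libraries and adjusted over all 16418 genes (Benjamini-Hochberg); a gene with an adjusted p under 0.05 is called. Of 24 tests, 4 genes in 6 comparisons, 0 were called by edgeR and 6 had an unadjusted p under 0.05. DESeq2 gave an adjusted p for 15 of the 24 and called 1, SLITRK5 in SA1 against SA2 lines. In that comparison edgeR called 1.49% of all genes and DESeq2 4.05%. Over all genes the share at an unadjusted p under 0.05 was 16.2% in SA1 against SA2 lines, 13.6% and 11.9% in the SA1Q against the SA2Q line without and with guide, 4.79% in SA1 against SA2 with guide, 5.66% with guide against without and 15.4% in Q forms against wild-type deaminases. The counts of called genes depend on single libraries: leaving out each in turn gave 55 to 732 in SA1 against SA2 lines (245 with all), 3 to 168 in SA1Q against SA2Q without guide (23 with all, 958 without both libraries that stood apart), 2 to 668 with guide (16 with all) and 30 to 1049 in Q forms against wild-type deaminases (141 with all).

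SLITRK5 had lower group means in the SA1 lines than in the SA2 lines, a difference that edgeR did not call. The group means were 0.228, 0.136 and 0.402 CPM in SA1Q, SA1Q+gRNA and SA1+gRNA, against 0.388, 0.465 and 0.655 CPM in SA2Q, SA2Q+gRNA and SA2+gRNA, each SA1 group below its SA2 counterpart. The log2 difference was -1.01 (SE 0.31, 95% interval -1.66 to -0.35), and the adjusted p was 0.112 by edgeR. By DESeq2 it was -1.03 with an adjusted p of 0.040. DESeq2 was not refitted without single libraries. In edgeR the size of the difference and its call depended on SA1Q+gRNA. Without its replicate 2, which leaves the library with 1 SLITRK5 fragment, the difference was -1.83 and was called (adjusted p = 0.024, edgeR, where 1.9% of genes were called); without replicate 1 it was -0.78 (adjusted p = 0.10). With both libraries that stood apart left out it was -0.78.

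Markers moved in the same comparison, where edgeR called 1.49% of all genes. Of the 10 markers of 293 cells, edgeR called KRT8 (-0.27, adjusted p = 0.020) and KRT19 (-0.33, adjusted p = 0.003) lower and CDH2 (0.29, adjusted p = 0.049) higher in the SA1 lines. Of 6 blood cell markers, 4 were tested and CD68 (-0.52, adjusted p = 0.007) and LCP1 (-0.29, adjusted p = 0.005) were called lower by edgeR. The blood cell markers summed to 123 to 162 CPM in the SA1 lines and 168 to 182 CPM in the SA2 lines, without overlap, nearly all of it LCP1 and CD68, while CD3E and HBB held 9 and 15 fragments in all libraries together. The sums of the other 5 marker lists overlapped, and edgeR called 0 genes in the 4 lists of fibroblast, endothelial, neuronal, and cardiac and pancreatic markers. Their part in the SLITRK5 difference was not tested.

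The same group moved the other SLITRK5 differences. Between SA1Q+gRNA and SA2Q+gRNA, where 0.0975% of genes were called, the difference was -1.58 (SE 0.57, interval -2.79 to -0.36, adjusted p = 0.311, edgeR); it was -0.91 without SA1Q+gRNA replicate 1, and -4.07 (adjusted p = 0.034) without replicate 2, a fit that called 3.97% of genes. With guide, the Q forms minus the wild-type deaminases gave -0.95 (SE 0.36, adjusted p = 0.228, edgeR), -0.62 without replicate 1 and -2.20 (adjusted p = 0.028) without replicate 2, a fit that called 6.24% of genes. Between SA1Q and SA2Q without guide SLITRK5 differed by -0.80 (interval -1.98 to 0.38), and between SA1+gRNA and SA2+gRNA by -0.64 (interval -1.61 to 0.32).

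ISL1 and CHRDL1 had wide intervals in all 6 comparisons. In fits of only the SA1Q and SA2Q lines, without or with guide, neither gene had enough fragments to be tested. ISL1 also had too few in a fit of only the Q groups with and without guide. Their values in those comparisons come from the fit over all libraries. ISL1 was at 0.0564 ± 0.0494 CPM in SA1Q and 0.190 ± 0.091 CPM in SA2Q (SD, n = 2 each), a log2 difference of -1.69 (SE 0.75, interval -3.30 to -0.08, adjusted p = 0.347, edgeR) where 0.14% of genes were called. Those means rest on 6 fragments in SA1Q and 21 in SA2Q. The difference was -3.06 without SA1Q replicate 1, -1.07 without SA1Q replicate 2 and -1.06 without SA2Q replicate 2. With guide, the difference between the SA1Q and the SA2Q line was -0.11 (interval -1.67 to 1.45). Over all SA1 lines minus all SA2 lines ISL1 differed by -0.55 (interval -1.41 to 0.31) and CHRDL1 by -0.04 (interval -0.75 to 0.66).

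CHRDL1 was lower with the Q forms than with the wild-type deaminases by group means. It averaged 0.105 and 0.142 CPM in SA1Q+gRNA and SA2Q+gRNA, against 0.230 and 0.252 CPM in SA1+gRNA and SA2+gRNA. The log2 difference was -1.03 (SE 0.39, interval -1.86 to -0.20, adjusted p = 0.224, edgeR), not called where 0.859% of genes were. It was -0.65 without SA1+gRNA replicate 2, the even-count library with the highest CHRDL1 level among the transgenic libraries. ISL1 gave -0.86 (interval -1.83 to 0.12) and PTCHD1 0.26 (interval -0.35 to 0.86) in the same comparison. The Q and the wild-type forms are also different cell lines, which cannot be told apart from the change in the deaminase.

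PTCHD1 was the only gene of the 4 with a positive difference whose unadjusted p was under 0.05. It averaged 0.663 ± 0.114 CPM in SA1+gRNA and 0.315 ± 0.033 CPM in SA2+gRNA (SD, n = 2 each), a log2 difference of 1.10 (SE 0.40, interval 0.25 to 1.96, adjusted p = 0.913, edgeR), where 0.0122% of genes were called. In the Q forms the SA1Q line minus the SA2Q line gave -0.36 (interval -1.17 to 0.44) without guide and -0.71 (interval -1.54 to 0.13) with guide; whether these differences differ from 1.10 was not tested. Over all SA1 lines minus all SA2 lines the difference was 0.01 (interval -0.45 to 0.48).

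Over both Q lines, guide against no guide gave 0 called genes among all tested (0.0% by edgeR, 0 by DESeq2, 929 genes at an unadjusted p under 0.05), and 93 by edgeR without SA1Q+gRNA replicate 2. The differences, guide minus no guide, were -0.02 for ISL1 (interval -1.69 to 1.66), -0.21 for CHRDL1 (interval -1.15 to 0.73), -0.16 for SLITRK5 (interval -1.02 to 0.70) and -0.33 for PTCHD1 (interval -0.91 to 0.25). Leaving out 1 library moved the SLITRK5 value between -1.41 (without SA1Q+gRNA replicate 2) and 0.17 (without SA1Q+gRNA replicate 1), and the ISL1 value between -0.33 and 0.67 (without SA1Q replicate 1).

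**Figure D3:**
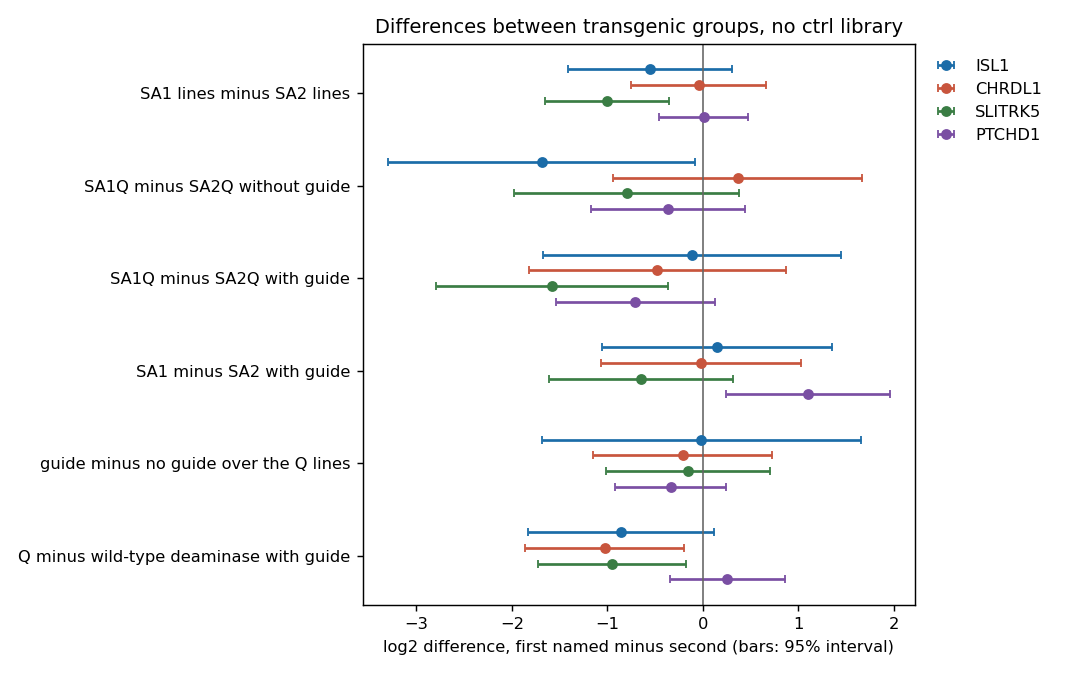
Log2 difference of each gene in the 6 comparisons that hold no ctrl library, with the first-named group minus the other and bars for the 95% interval. SLITRK5 lies at -1.01 in SA1 against SA2 lines and at -0.16 with guide against without, and PTCHD1 stands at 1.10 in SA1 against SA2 with guide.

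No gene of the pathways around the 4 was called against ctrl by edgeR. Lists of 146 related genes, written with the 4 genes' values known and without the 4 genes themselves, held 117 tested genes. In transgenic lines against ctrl, where 0.633% of all genes were called, 0 of the 117 were called by edgeR, and 23 had an unadjusted p under 0.05 (14.5% of all genes did). DESeq2 called 3 of them, and 2.33% of all genes. Their median log2 change was -0.04, beside -0.002 over all genes tested.

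Partners and relatives of ISL1 had changes on both sides of 0. The 27 tested LIM-homeodomain genes and regulators had 14 changes below 0, a median of -0.01 and 0 calls. ISL2, the paralogue of ISL1, averaged 20.5 ± 1.6 CPM in the transgenic libraries (SD, n = 12) and 24.5 ± 0.6 CPM in ctrl (SD, n = 2), a log2 change of -0.26 (SE 0.07, adjusted p = 0.123, edgeR). LDB1, the adaptor of LIM factors, averaged 63.5 CPM in the transgenic libraries and 66.9 CPM in ctrl (log2 change -0.08), and LMO4, a LIM-only protein that competes for LDB1, 51.6 CPM in the transgenic libraries and 52.3 CPM in ctrl (-0.02). NKX2-5, a heart progenitor factor, averaged 32.9 CPM in the transgenic libraries and 37.2 CPM in ctrl (-0.18, adjusted p = 0.659, edgeR), and the motor neuron gene CHAT held 37 fragments in all 14 libraries together.

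BMP signalling genes were spread around 0. Of 12 tested antagonists 6 lay below 0 (median -0.06). CHRD, the founding member of the chordin family, averaged 3.17 CPM in the transgenic libraries and 3.10 CPM in ctrl (log2 change 0.02), and NOG, a secreted BMP trap, 1.08 CPM in the transgenic libraries and 1.21 CPM in ctrl (-0.20, adjusted p = 0.704, edgeR). CHRDL2, the paralogue of CHRDL1, had 38 fragments over all libraries and was not tested. Ligands (9 tested, median -0.004), receptors and SMADs (14 tested, median -0.04) and BMP targets (11 tested, median -0.08) had 0 calls by edgeR. The target genes ID1 and ID3, which SMAD proteins switch on, averaged 9.36 and 53.3 CPM in the transgenic libraries, against 8.90 and 54.7 CPM in ctrl. DESeq2 called the ligand gene BMP2 (log2 change -0.59, adjusted p = 0.026) and the follistatin-like gene FSTL1 (0.29, adjusted p = 0.034), for which edgeR gave adjusted p-values of 0.082 and 0.110.

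Other SLITRK genes held few fragments. SLITRK1, SLITRK2, SLITRK4 and SLITRK6 had 16, 19, 16 and 26 fragments over the 14 libraries, against 425 for SLITRK5, and were not tested. SLITRK3 was tested at 0.172 CPM in the transgenic libraries and 0.0926 CPM in ctrl (log2 change 0.68, SE 0.59, adjusted p = 0.654, edgeR). The 6 SLITRK partners, among them the receptor phosphatase genes PTPRD and PTPRS and the neurotrophin receptor gene NTRK2, had a median of 0.06 and 0 calls, and the 15 tested synaptic adhesion genes a median of -0.10.

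Of the genes related to PTCHD1 none was called against ctrl by edgeR. PTCHD3 and PTCHD4 had 6 and 47 fragments in all. PTCH1, the hedgehog receptor, averaged 29.8 CPM in the transgenic libraries and 30.2 CPM in ctrl (log2 change -0.02, adjusted p = 0.944, edgeR). The 10 tested patched-related and sterol-sensing genes had a median of -0.03, and the 13 tested hedgehog pathway genes a median of -0.06, with 0 calls by edgeR. HHIP, a hedgehog-binding inhibitor and itself a target of the pathway, averaged 2.62 CPM in the transgenic libraries and 3.89 CPM in ctrl (log2 change -0.58, adjusted p = 0.060 by edgeR and 0.025 by DESeq2), and GLI1, another target, 1.12 CPM in the transgenic libraries and 1.55 CPM in ctrl (-0.47, adjusted p = 0.448, edgeR).

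**Figure D4:**
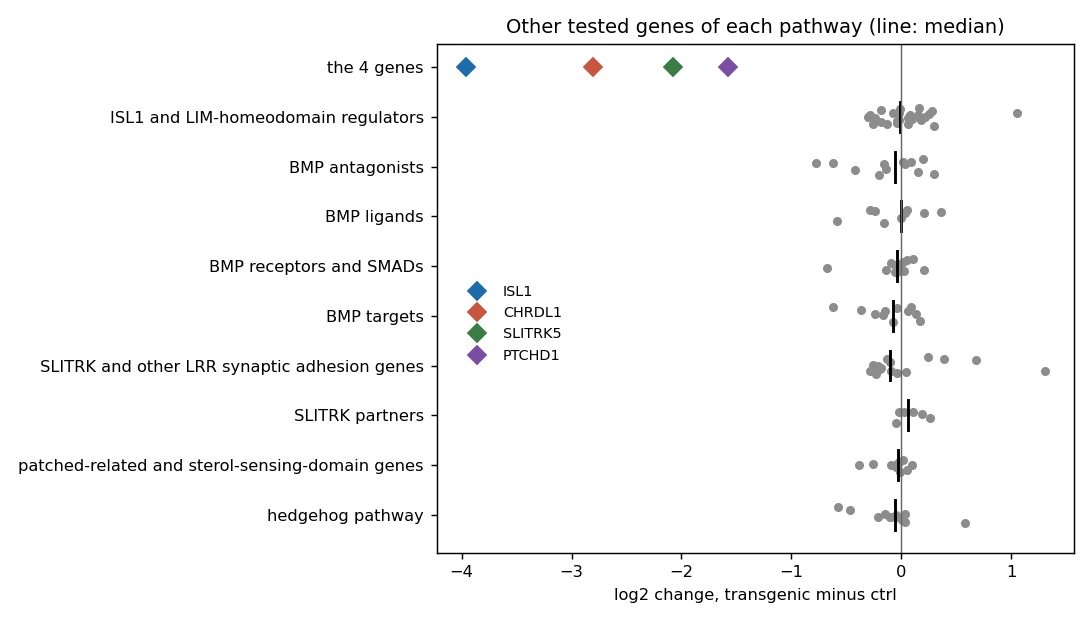
Log2 change, transgenic minus ctrl, of the 4 genes (diamonds) and of the other tested genes of 9 lists (points), with a line at the median of each list. The list medians lie between -0.10 and 0.06, whereas the 4 genes, chosen for it, lie between -3.96 and -1.58.

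Between the SA1 and the SA2 lines 2 of the 117 pathway genes were called by edgeR, 24 had an unadjusted p under 0.05, and their median was -0.03. Over all genes edgeR called 1.49%, and 16.2% had an unadjusted p under 0.05, so the 2 calls are near the share over all genes. FLRT2, a leucine-rich-repeat adhesion gene, was at 0.681 ± 0.174 CPM in SA1Q and 0.749 ± 0.149 CPM in SA1Q+gRNA but 0.0504 ± 0.0455 CPM in SA1+gRNA, and the SA2 groups had means of 0.0238 to 0.0519 CPM (SD, n = 2 each); ctrl had 0.0478. Its log2 difference was 3.03 (SE 0.52, adjusted p = 0.010, edgeR), lost without SA1+gRNA replicate 2 (2.49, adjusted p = 0.316), SA2Q replicate 2 (2.79, adjusted p = 0.056) or SA2Q+gRNA replicate 2 (2.89, adjusted p = 0.055). DESeq2 gave 3.07 and no adjusted p for it. ACVRL1, a receptor of the BMP family, averaged 0.953, 1.19 and 1.82 CPM in SA1Q, SA1Q+gRNA and SA1+gRNA, against 2.09, 1.92 and 2.10 CPM in SA2Q, SA2Q+gRNA and SA2+gRNA. It fell by 0.68 (adjusted p = 0.024, edgeR), a call lost in 8 of the fits without 1 library, with adjusted p-values of 0.054 to 0.096 there. Of the 4 genes, SLITRK5 has the largest difference in this comparison, as given above, and it was not called.

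Among the genes near the 4 on their chromosomes, edgeR called 1 against ctrl, PHEX-AS1, in a comparison where it called 0.633% of all genes. The nearest tested genes were PARP8 and PELO around ISL1, RTL9 and PAK3 around CHRDL1, SPRY2 and MIR17HG around SLITRK5 and PHEX and PRDX4 around PTCHD1. Their log2 changes ran from -1.14 (PHEX, SE 0.46, adjusted p = 0.276, edgeR) to 0.38 (PAK3, SE 0.35), with 0 calls by edgeR. PHEX had 0.669 CPM in ctrl replicate 1, a library that stood apart. In ctrl replicate 2 it had 0.265 CPM, within its transgenic range of 0.0986 to 0.412 CPM. Within 5 megabases on either side, a window chosen after the values were seen, 24 tested genes around ISL1 had a median of -0.02 and 28 around CHRDL1 a median of 0.07, with 0 calls each. Only 2 tested genes lay around SLITRK5, at -0.55 and -0.50, neither called. Around PTCHD1 30 genes had a median of 0.08 with 1 call.

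PHEX-AS1, named after its value was seen, is a non-coding RNA on the strand opposite to PHEX at chrX:22180849-22191100. It held 0 to 17 fragments in a transgenic library, against 22 and 23 in the ctrl libraries. The log2 change was -2.97 (SE 0.49, adjusted p = 0.012, edgeR), and without ctrl replicate 1 it was -2.83 (adjusted p = 0.067). Fragments of PHEX and PHEX-AS1 may not be separable. PTCHD1-AS, which lies between PHEX and PTCHD1 on the opposite strand, was listed at 0 in all libraries.

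**Figure D5:**
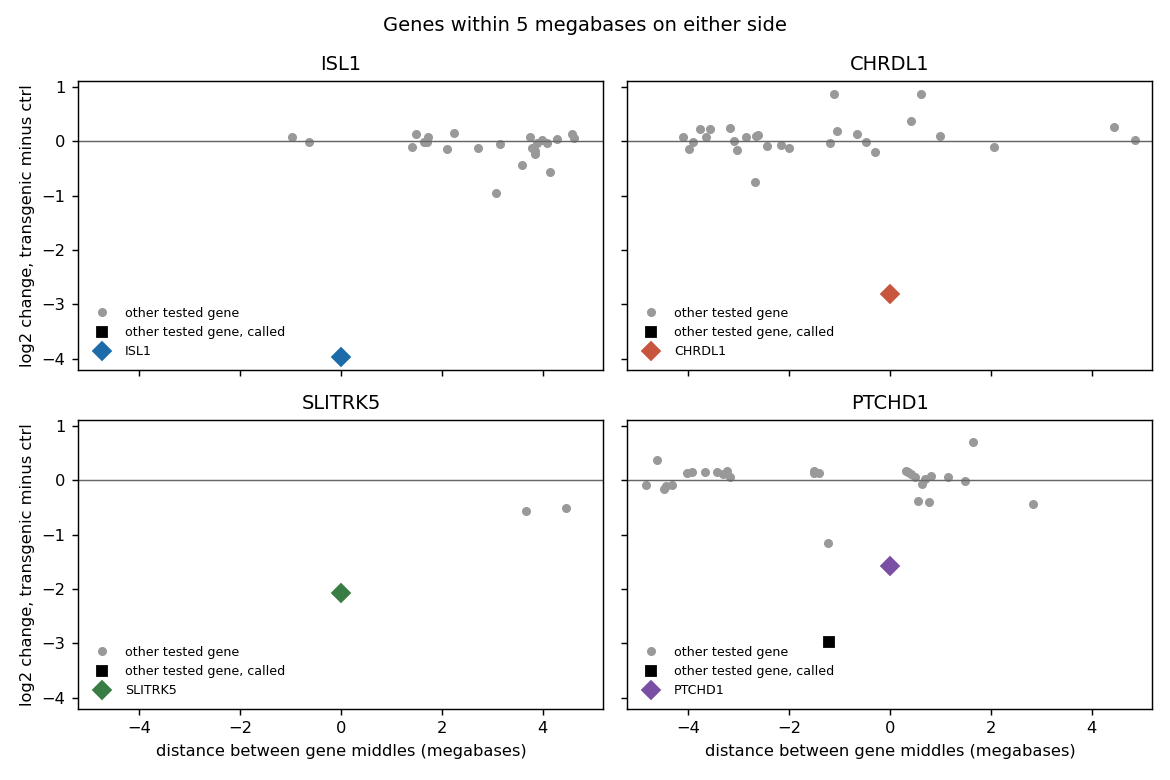
Log2 change, transgenic minus ctrl, of the tested genes within 5 megabases, against the distance between gene middles, with a panel per gene. Most grey points lie near 0, and PHEX-AS1 (-2.97), in the panel of PTCHD1, is the gene that edgeR called among the neighbours.

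The genes whose level across the 14 libraries was most like each of the 4 were taken among 14547 tested genes with a mean of at least 0.5 CPM, by Pearson's r of log2 CPM. For ISL1 they were the ephrin receptor gene EPHA5 (r = 0.92), the galactose enzyme gene GALT (0.89) and the extracellular matrix gene FREM1 (0.89). EPHA5 ranged from 0.552 to 1.29 CPM in the transgenic libraries, against 2.27 and 1.95 CPM in ctrl, without overlap. For CHRDL1 they were FBXO44 (0.88), SLC67A2 (0.84) and the Polycomb gene CBX8 (0.83), with log2 changes against ctrl of only -0.22, -0.21 and -0.23. For SLITRK5 they were ADAP2 (0.88), PRSS36 (0.88) and the fatty acid desaturase gene FADS2 (0.88), and for PTCHD1 the transcription factor gene CEBPE (0.89), HYDIN (0.89) and NFKBID (0.83). CEBPE averaged 38.5 ± 7.9 CPM in the transgenic libraries (SD, n = 12) and 58.8 ± 3.3 CPM in ctrl (SD, n = 2). The ctrl libraries and the depth of the libraries enter every one of these correlations.

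Leaving out the libraries that stood apart did not close the gap to ctrl. Without both, the log2 change was -4.09 for ISL1, -2.59 for CHRDL1, -1.79 for SLITRK5 and -1.56 for PTCHD1. The summed levels of markers of other cell types overlapped between transgenic and ctrl libraries in 4 of 5 lists, all but the endothelial one. The summed level of 7 fibroblast markers ran from 7.14 to 10.7 CPM in the transgenic libraries and from 9.72 to 11.1 CPM in ctrl, and that of 6 blood cell markers from 123 to 182 CPM in the transgenic libraries and from 160 to 162 CPM in ctrl. The sum of 4 endothelial markers ran from 0.360 to 0.843 CPM in the transgenic libraries and from 0.265 to 0.287 CPM in ctrl, with KDR, a receptor of endothelial cells, at 0.468 CPM in the transgenic libraries and 0.193 CPM in ctrl (log2 change 1.26, adjusted p = 0.139, edgeR) and PECAM1 at 28 fragments in all libraries together. The sum of 7 motor and sympathetic neuron markers ran from 17.96 to 26.2 CPM in the transgenic libraries and from 23.0 to 29.4 CPM in ctrl, and that of 7 cardiac and pancreatic markers from 49.5 to 78.3 CPM in the transgenic libraries and from 54.9 to 70.1 CPM in ctrl, with INS at 3 fragments. Their part in the 4 genes' levels was not tested.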

How the data were processed

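Fragments per RefSeq transcript were deposited for 14 libraries, 2 per group, from poly(A) RNA made into libraries with a strand-keeping kit and sequenced paired-end, per the labels' protocols. The count column held whole fragments, not normalized, per the file headers. The FPM column, a signal that the authors scaled to the library total, served to choose a transcript per gene, and the FPKM column, scaled by the authors to length and library total, served to compare levels between genes and in an alternative. Trim Galore, STAR 2.4.2a and hg19 were used, per the submitters' processing notes; the counting tool is not given in the sources used here.

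Of 45595 accessions 98.6% were named with a RefSeq gene table of GRCh38.p14, used for names only, and a GENCODE table. The 887 unnamed entries held 0.81% of the counts and were left out, as were transcripts under 200 nucleotides. Counts were fitted with edgeR 4.0.16 in R 4.3.3 (TMM, filterByExpr with a minimum count of 10, quasi-likelihood, two-sided) over all 14 libraries, with 7 group means and no covariate, and tested on simulated data first. The fit had 7 residual degrees of freedom and a common coefficient of variation of 8.67%. SE is the absolute log2 change over the root of F. Chance alone gives 821 genes with an unadjusted p under 0.05 in a comparison. DESeq2 1.42.0 and limma 3.58.1 were alternatives. The 2 libraries of a group are from biologically independent experiments per the series' design text.

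The 4 genes, the lists and the tests were chosen with earlier results of these data known. 2 genes of the lists are not reported here. Named besides the 4 genes were ADAR and ADARB1, called list genes with fixed family members, the nearest tested and all overlapping genes, and the 3 genes most like each; others are said to be named after their values were seen, as were BMP2, FSTL1, HHIP, GLI1 and NKX2-5 and the marker genes.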

Additional observations from a re-analysis of the deposited data

How the results depend on the processing

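The gap of the 4 genes to ctrl kept its direction in every alternative: ISL1 stayed between -4.20 and -2.47, CHRDL1 between -3.04 and -1.38, SLITRK5 between -2.49 and -1.23 and PTCHD1 between -1.68 and -0.99 on the log2 scale. The smallest sizes came from limma on log2(FPKM + 0.1), which by construction compresses low values. Between transgenic lines, 4 of 546 values of single genes gained a call, all of SLITRK5, and 29 changed sign without a call. Calls among the 4 genes in SA1 against SA2 lines numbered 1 by DESeq2 and 0 to 1 when each library was left out. Leaving out each library also gave 0 to 1 in the SA1Q against the SA2Q line with guide, and 0 to 1 in Q forms against wild-type deaminases. Among pathway genes against ctrl, calls numbered 2 without a filter on low counts (BMP2 and HHIP), 4 without both libraries that stood apart, 3 by DESeq2 and 0 to 5 when each library was left out. In SA1 against SA2 lines they numbered 4 without a filter, 5 with only the groups compared in the fit and 4 by DESeq2. They varied when each library was left out. They also rose without both libraries that stood apart, a fit that left ctrl and SA1Q+gRNA with 1 library each. The cause was not tested. Calls over all genes in SA1 against SA2 lines also rose in these fits. They numbered 245 of 16418 in the main fit and 387 of 21829 without a filter. With only the groups compared they numbered 500 of 16265, and by DESeq2 614 of 15144. Without both libraries that stood apart, calls over all genes rose as well, so the 12 are not particular to the pathway lists. Where an omission left a group with 1 library, that library was assumed to vary like the other groups. Genes called over all tested in transgenic lines against ctrl numbered 104, with 37 to 519 when each library was left out, 383 by DESeq2, 785 without both libraries that stood apart, 269 without a filter and 57 with the replicate block. The replicate numbers did not pair the libraries (correlations of their deviations from -0.14 to 0.44 over 21 pairs of groups). With the replicate block 0 of the 4 genes were called between lines, and SLITRK5 in SA1 against SA2 lines was at -1.02 (adjusted p = 0.116, edgeR). With the counts of SA1+gRNA replicate 2 halved, SLITRK5 in that comparison was at -1.02 (adjusted p = 0.109, edgeR). Levels of 1 to 28 fragments limit ISL1 most.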
